A study of Mus musculus with 6 samples.

Results

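The loci of chromosome 20 were followed across 6 xenograft tumours of A375, a human melanoma cell line. A locus was every transcript event on chromosome 20 that carried the same locus identifier. Its value in a tumour was the largest of its summed start-site events, its summed end-site events and its largest single event. This gave 416 loci of 15234 in all, or 2.73%, built from 4476 events. The chromosome was selected on these same locus values, because they moved together between the tumours, so that movement is given below as a description, with no test.

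RNA from 3 tumours of mice given ZLD1039 and 3 tumours of mice given vehicle was compared. ZLD1039, an inhibitor of the histone methyltransferase EZH2, was given by mouth once a day at 100 mg/kg, and all 6 tumours were taken on day 27. A375 cells, labelled wild type, had been injected under the skin of BALB/c nude mice, which lack T cells but keep other host cells, and these can be part of a tumour sample. Each arm held 5 mice. Whether the 3 sequenced tumours of a group had separate hosts is not stated, so every p-value reflects tumour-to-tumour spread, which may be partly technical. EZH2 is the catalytic subunit of Polycomb repressive complex 2, which places methyl groups on lysine 27 of histone H3 and keeps genes silent. Chromosome 20 is a small, gene-rich human chromosome whose long arm is often gained in solid tumours. DNA copy number was not measured here.

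The authors' values were length- and depth-scaled fragment abundances (FPKM) for each event, so the sequencing depth behind them is unknown. An event or locus with no entry in a tumour's list is called unlisted and was set to 0. The labels name mouse as the organism and mm10 as the build, but the files number chromosomes up to 22 and use human Ensembl identifiers. From background knowledge, the chromosome names and ends are those of human build GRCh37, and no human genome was used here to check it. Positions, which ran up to 62899363 on chromosome 20, are given as the files have them. The files do not pair the 370 Ensembl identifiers of chromosome 20 with gene names, and 0 of them matched the mouse name table used, so loci are named by position and no gene role or marker of melanoma or host cells could be checked. In these bulk samples, fewer cells of a type and less RNA per cell cannot be told apart.

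Chromosome 20 loci had a higher median level than the rest. Of the 416 loci, 298 (71.6%) averaged at least 1 FPKM in at least 1 group and were tested, against 71.1% on the other chromosomes. The median over the tested loci was 11.4 FPKM, with quartiles of 4.26 and 30.1 FPKM, against 7.95 FPKM with quartiles of 3.37 and 18.1 FPKM for the other tested loci. Only 10 loci exceeded 100 FPKM on average. The 118 untested loci reached at most 1.85 FPKM in any tumour. At the filter, the untested locus nearest to it had a higher group mean of 0.966 FPKM, and the tested locus nearest to it 1.01 FPKM.

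Most members were present everywhere. All 6 tumours listed 285 loci (68.5%), close to the 70.6% of other loci, and 55 loci (13.2%) appeared in 1 tumour only. Listed loci numbered 334, 318 and 341 in ZLD1039 tumours 1 to 3, against 335, 336 and 355 in Vehicle tumours 1 to 3. ZLD1039 tumour 2 had the fewest and Vehicle tumour 3 the most. Over the whole series ZLD1039 tumour 2 also listed the fewest loci, 12114, while Vehicle tumour 3 listed 12689 and Vehicle tumour 1 the most, 12758. An Ensembl identifier was attached to 383 loci, while 33 had none. The plus strand held 246 loci and the minus strand 170.

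By the kinds of transcript event, chromosome 20 resembled the genome. Exon skipping made up 39.5% of its events, against 39.8% elsewhere, and start sites 21.3%, against 22.1%. Intron retention accounted for 15.5%, against 14.8% elsewhere.

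The 2 most abundant loci lay on the long arm. The first, chr20:57414773-57485456 on the plus strand (ENSG00000087460), had 467, 349 and 377 FPKM in the ZLD1039 tumours, against 432, 511 and 742 FPKM in the Vehicle tumours. Vehicle tumour 3 was highest, and the groups overlapped. The second, chr20:60962172-60963575, had 436, 506 and 335 FPKM in the ZLD1039 tumours, against 357, 363 and 501 FPKM in the Vehicle tumours. Here ZLD1039 tumour 2 was highest, so these neighbours in abundance did not follow the same order of tumours. The 10 most abundant loci held 26.6%, 27.4% and 23.8% of the chromosome's summed FPKM in the ZLD1039 tumours, against 26.2%, 26.5% and 30.4% in the Vehicle tumours.

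The joint movement appeared as a change in the chromosome's share of the transcriptome. Its loci carried 3.25%, 2.58% and 3.29% of all summed FPKM in the ZLD1039 tumours, against 3.11%, 3.12% and 3.52% in the Vehicle tumours. ZLD1039 tumour 2 was lowest and Vehicle tumour 3 highest. A share also depends on the total over all loci, which was largest in ZLD1039 tumour 2, at 269196 summed FPKM. The other tumours had totals from 225630 to 249641 FPKM. Chromosome 20 itself summed to 6941 FPKM in ZLD1039 tumour 2, the lowest, and to 7028 FPKM in Vehicle tumour 1. The median tested locus stood at 12.2, 8.72 and 12.7 FPKM in the ZLD1039 tumours, against 11.0, 10.9 and 11.1 FPKM in the Vehicle tumours. On the other chromosomes the same medians ran only from 7.69 to 8.09 FPKM.

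For each tumour, a locus deviation was taken as its log2(FPKM + 1) minus the mean of the other 5 tumours. The median deviation over the 298 tested loci was 0.086, -0.23 and 0.10 in ZLD1039 tumours 1 to 3, against -0.068, -0.0054 and 0.19 in Vehicle tumours 1 to 3. The other chromosomes together gave -0.0095, 0.025 and 0.049 in the ZLD1039 tumours, against -0.020, -0.013 and 0.042 in the Vehicle tumours. In ZLD1039 tumour 2, 216 loci (72.5%) were below 0, compared with 47.8% of the other loci and 79.9% of those on chromosome 9. The same number, 216, lay above 0 in Vehicle tumour 3. In each group, 1 tumour or more stood on either side of 0, but this did not hold under every alternative. Under quantile scaling all 3 Vehicle medians were above 0 (0.0027, 0.0073 and 0.15). With ZLD1039 tumour 2 left out, the medians of ZLD1039 tumours 1 and 3 were both above 0 (0.032 and 0.040). In the ZLD1039 group the side below 0 thus rested on ZLD1039 tumour 2.

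**Figure D1:**
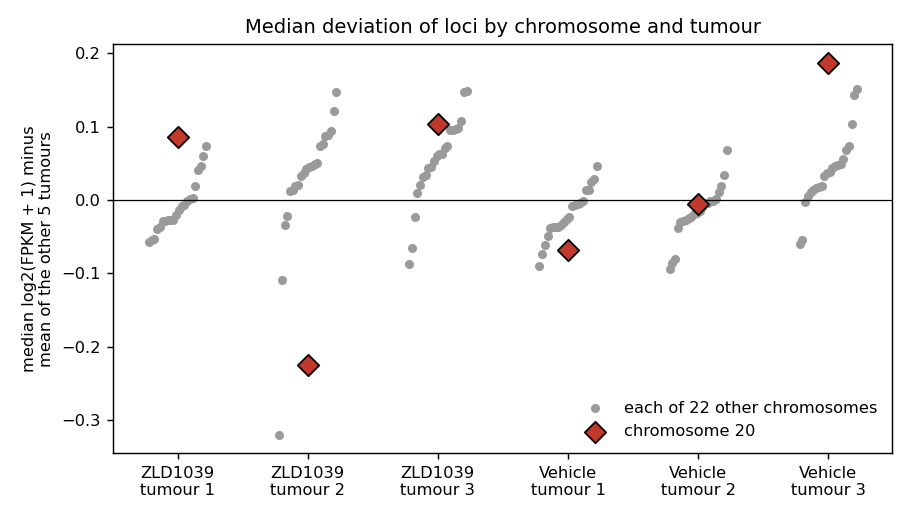
Median log2 deviation of tested loci from the other 5 tumours (vertical axis) for each of the 6 tumours, with chromosome 20 as a diamond and each of the 22 other chromosomes as a grey point. Chromosome 20 is the highest of 23 in ZLD1039 tumour 1 and Vehicle tumour 3, and in ZLD1039 tumour 2 only chromosome 9 lies below it.

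Among 23 chromosomes, chromosome 20 had the highest median in ZLD1039 tumour 1 and in Vehicle tumour 3. In ZLD1039 tumour 2 it was second from the bottom, above chromosome 9 at -0.32 and below chromosome 21 at -0.11. Its medians spanned 0.41 on the log2 scale over the 6 tumours. Chromosome 9 spanned 0.42, and the next chromosome, 19, spanned 0.24. Chromosomes 9 and 20 differed in the Vehicle tumours, where chromosome 9 had medians of 0.028, 0.068 and 0.10, against -0.068, -0.0054 and 0.19 for chromosome 20.

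The size of the movement can be read from single loci. ZLD1039 tumour 2 was the lowest of the 6 tumours for 128 of the 298 loci (43.0%), against 23.8% of other loci and 47.7% of those on chromosome 9. In the same tumour 23 loci (7.72%) were more than 1 log2 unit below the others and 3 were more than 1 above, against 5.51% and 2.86% of the other loci. Vehicle tumour 3 was the highest for 95 loci (31.9%), against 17.7% elsewhere and 24.4% on chromosome 9. The quartiles of the deviations in ZLD1039 tumour 2 were -0.54 and 0.031.

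A direct comparison of pairs of tumours gave the same order. ZLD1039 tumour 2 minus Vehicle tumour 3 had a median of -0.30 on the log2 scale, with 233 of 298 loci below 0. ZLD1039 tumour 1 minus ZLD1039 tumour 2, both from treated mice, had a median of 0.29. Vehicle tumour 1 minus Vehicle tumour 3, both from control mice, had a median of -0.18. The largest median difference within a group, 0.29, was thus close in size to the largest between groups, -0.30. The spread of a single locus over the 6 tumours was not larger than elsewhere, with a median SD of 0.28 for chromosome 20 and 0.29 for other loci on the log2 scale.

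Both arms took part. The files leave a gap of 3.44 Mb without listed loci between positions 26174797 and 29611561, which was used to split 94 tested loci of the short arm from 204 of the long arm. In ZLD1039 tumour 2 the median deviation was -0.26 on the short arm and -0.20 on the long arm. In Vehicle tumour 3 it was 0.21 on the short arm and 0.18 on the long arm. Summed FPKM of the short arm was 1985, 1580 and 2015 in the ZLD1039 tumours, against 1687, 1802 and 2103 in the Vehicle tumours. For the long arm it was 5868, 5361 and 5703 in the ZLD1039 tumours, against 5341, 5634 and 6680 in the Vehicle tumours. ZLD1039 tumour 2 had the lowest short-arm sum, but its long-arm sum was just above that of Vehicle tumour 1.

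No 10 Mb window ran against the rest in ZLD1039 tumour 2. From the short-arm end, its window medians were -0.26, -0.18, -0.36, -0.20, -0.20, -0.48 and -0.15, over 51, 27, 17, 74, 59, 28 and 42 tested loci. The window from 50 to 60 Mb was lowest and the last window, from 60 to 70 Mb, was nearest 0. In Vehicle tumour 3 the same windows had medians of 0.23, 0.063, 0.14, 0.11, 0.15, 0.27 and 0.22. The 50 to 60 Mb window was thus lowest in ZLD1039 tumour 2 and highest in Vehicle tumour 3. ZLD1039 tumour 1, above 0 in the other windows, had a median of -0.078 in that window.

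**Figure D2:**
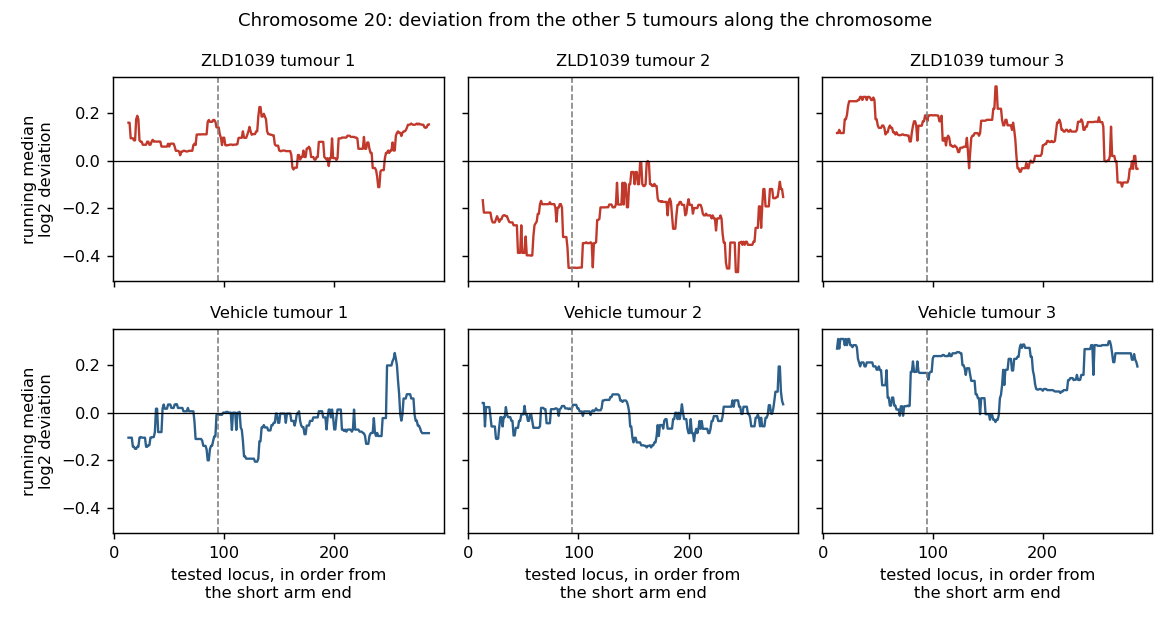
Running median of log2 deviation over 25 neighbouring tested loci (vertical axis) against locus order from the short-arm end (horizontal axis), 1 panel per tumour, with ZLD1039 tumours above Vehicle tumours and a dashed line between the arms. The line of ZLD1039 tumour 2 stays below 0 at all 274 points, between -0.47 and -0.0016.

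A running median over 25 neighbouring loci showed the pattern without fixed windows. In ZLD1039 tumour 2 it was below 0 at all 274 points along the chromosome. It was below 0 at 17 points in ZLD1039 tumour 1 and at 36 in ZLD1039 tumour 3, against 205, 159 and 16 points in Vehicle tumours 1 to 3. Neighbouring points share loci, so these counts describe the course and are not independent.

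Loci of low, middle and high abundance were compared with other loci of the same abundance, because deviations in ZLD1039 tumour 2 were higher in abundant loci genome-wide. In that tumour the median deviation of chromosome 20 was -0.34 in the low class (99 loci), -0.26 in the middle class (99 loci) and -0.16 in the high class (100 loci). On other chromosomes the same bounds gave -0.092, 0.038 and 0.19. Chromosome 20 thus lay 0.25, 0.29 and 0.35 log2 units below other loci of like abundance, so the offset did not shrink towards the abundant loci. In Vehicle tumour 3 it lay above other loci by 0.18, 0.088 and 0.16 in the low, middle and high classes.

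**Figure D3:**
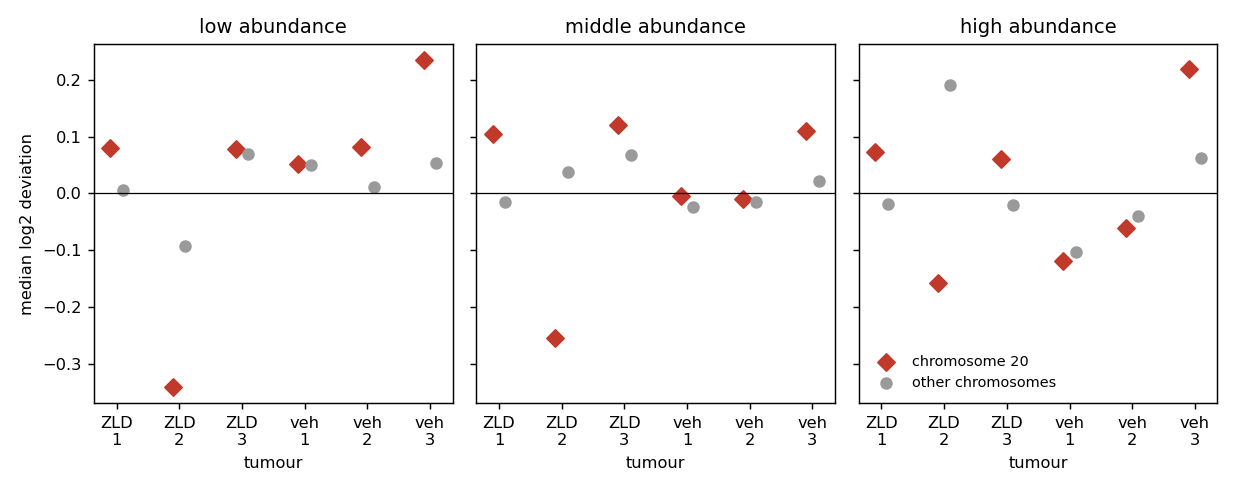
Median log2 deviation (vertical axis) in each tumour for loci of low, middle and high abundance, with chromosome 20 as diamonds and other chromosomes at the same abundance as circles; ZLD marks ZLD1039 and veh marks Vehicle tumours. In ZLD1039 tumour 2 the diamond is below the circle in all 3 panels, by 0.25, 0.29 and 0.35, and in Vehicle tumour 3 it is above.

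In ZLD1039 tumour 2 the median deviation of chromosome 20 was also below 0 on either strand, in each class of length and of number of start sites. These classes were not set beside like loci of other chromosomes. The median was -0.25 for plus-strand and -0.20 for minus-strand loci. It was -0.21, -0.17 and -0.28 for loci of short, middle and long span. Loci with at most 1 start site had -0.23, those with 2 or 3 had -0.23 and those with 4 or more had -0.17. Restricting the list to the 280 tested loci that every tumour listed gave a median of -0.20.

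Individual loci with at least 5 FPKM show how far the members ranged around that median in ZLD1039 tumour 2. The locus chr20:57875482-57901047 was unlisted in ZLD1039 tumour 2 and had 4.07 and 3.43 FPKM in ZLD1039 tumours 1 and 3, against 8.76, 12.0 and 5.98 FPKM in the Vehicle tumours. A short-arm locus, chr20:10618332-10654694, had 20.5, 5.83 and 16.6 FPKM in the ZLD1039 tumours, against 15.6, 18.9 and 18.0 FPKM in the Vehicle tumours. It was low in ZLD1039 tumour 2 alone. Another short-arm locus, chr20:25228705-25278650, had 198, 83.4 and 153 FPKM in the ZLD1039 tumours, against 171, 174 and 202 FPKM in the Vehicle tumours. It led its 10 Mb window in abundance. The locus furthest in the other direction, chr20:56964178-57026157, had 2.08, 11.7 and 3.11 FPKM in the ZLD1039 tumours, against 5.83, 7.03 and 1.51 FPKM in the Vehicle tumours.

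The comparison of ZLD1039 with vehicle found no changed locus on chromosome 20. With limma on log2(FPKM + 1), 0 of 298 loci passed a Benjamini-Hochberg adjusted p of 0.05, against 0.0185% of all 10834 loci tested, and the smallest adjusted p was 0.88. An unadjusted p under 0.05 was reached by 13 loci (4.36%), below the background of 4.94%. Of these, 3 were higher and 10 lower in the ZLD1039 tumours, a split for which no share over all loci is given here. The groups did not overlap for 25 loci (8.39%), against 10.9% of all loci. Of these, 10 (3.36%) were higher in the ZLD1039 tumours and 15 (5.03%) lower, against 5.75% and 5.2% of all loci. The median log2 change was -0.047, against 0.019 over all loci, and 173 loci (58.1%) were below 0, against 47.2% of all loci. Without ZLD1039 tumour 2 the median was 0.040, with 126 loci below 0, and without Vehicle tumour 3 it was 0.0097, so its sign rested on those tumours. A typical locus had a 95% interval of 0.52 log2 units to either side, before adjustment for the number of loci. Changes of 0.81 and -1.77 log2 units, described below, also missed the adjusted threshold, so changes larger than 0.52 can go undetected.

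Loci whose groups did not overlap were ranked by the size of their change, and none passed the test. The largest upward value belonged to chr20:44978167-44993026, with 32.0, 52.0 and 26.3 FPKM in the ZLD1039 tumours, against 19.9, 20.0025 and 19.4 FPKM in the Vehicle tumours. Its log2 change was 0.81 ± 0.25 (SE), with a limma adjusted p of 0.88, and it was 0.53 without ZLD1039 tumour 2. All 3 Vehicle tumours were close together, while the ZLD1039 tumours ranged widely. A low-abundance short-arm locus, chr20:23342787-23351058, had 3.88, 3.20 and 5.19 FPKM in the ZLD1039 tumours, against 2.30, 1.96 and 1.75 FPKM in the Vehicle tumours. The locus chr20:34287194-34288906 had 45.4, 59.5 and 46.9 FPKM in the ZLD1039 tumours, against 37.3, 32.6 and 38.3 FPKM in the Vehicle tumours, a log2 change of 0.47 ± 0.17 (SE).

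The largest downward values lay in loci of low abundance. The locus chr20:57875482-57901047, described above, had a log2 change of -1.77 ± 0.59 (SE) on the log2(FPKM + 1) scale. Its change was -1.02 without ZLD1039 tumour 2, in which it was unlisted, and -2.93 with a pseudocount of 0.1. A neighbour, chr20:57090783-57194944 had 4.36, 1.16 and 1.81 FPKM in the ZLD1039 tumours, against 4.93, 8.97 and 5.78 FPKM in the Vehicle tumours. The locus chr20:58630980-58645098 was unlisted in all 3 ZLD1039 tumours and had 1.29, 1.05 and 0.775 FPKM in the Vehicle tumours. It passed the filter of 1 FPKM only through its Vehicle mean of 1.04 FPKM, so its downward direction was bound to that filter. Each had a limma adjusted p of 0.88. The other downward loci named by size were chr20:61867235-61871847 and chr20:43921940-43922465, with log2 changes of -1.42 and -1.34. Of these, chr20:61867235-61871847 also passed the filter only through its Vehicle mean, 2.59 FPKM against 0.463 FPKM in the ZLD1039 tumours.

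Below the level of the locus, 1 intron of the long arm stood out. Of 2389 chromosome 20 events tested with limma, 2 passed a Benjamini-Hochberg adjusted p of 0.05, against 0.0362% of 82894 events, or 0.0265% for those higher in the ZLD1039 tumours. Both describe the same intron, chr20:42087149-42088411 on the plus strand (locus ENSG00000124193), once as a single intron and once as a run that spans an exon within it. The form that keeps the intron had 19.8, 18.8 and 23.1 FPKM in the ZLD1039 tumours, while all 3 Vehicle tumours left it unlisted, with an adjusted p of 0.0084. It rose in the ZLD1039 tumours, and no fold is given against an unlisted group. With any 1 tumour left out no event passed, and the adjusted p of this intron was then between 0.052 and 0.13.

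The spliced forms of that locus had lower values in the ZLD1039 tumours, without passing the test. The form with the intron spliced out had 13.5, 14.3 and 18.3 FPKM in the ZLD1039 tumours, against 37.1, 30.5 and 42.0 FPKM in the Vehicle tumours. Its log2 change was -1.19 ± 0.20 (SE), with a limma adjusted p of 0.34. The form that skips the exon chr20:42087793-42088060 inside the intron had 16.4, 14.3 and 18.3 FPKM in the ZLD1039 tumours, against 37.1, 34.9 and 42.0 FPKM in the Vehicle tumours. Expressed as a share, 59.4%, 56.7% and 55.8% of the intron's FPKM kept it in the ZLD1039 tumours, against 0% in each Vehicle tumour, with a limma adjusted p of 0.72. The SD of this share was 1.88 percentage points in ZLD1039 and 0 in Vehicle tumours, against a limma SE of 11.2 points. That SE came largely from the spread of other items, so this p does not measure the spread of these tumours. The whole locus, chr20:42086568-42089974, had 38.7, 39.9 and 44.3 FPKM in the ZLD1039 tumours, against 45.3, 40.2 and 56.6 FPKM in the Vehicle tumours. Its log2 change was -0.19 ± 0.18 (SE), with an adjusted p of 0.88.

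**Figure D4:**
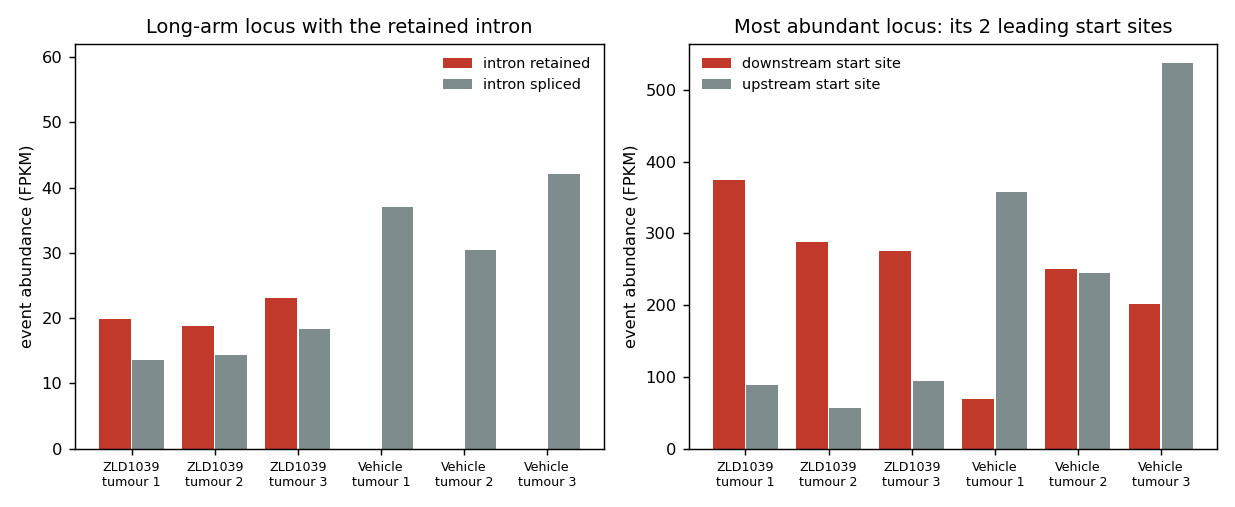
Abundance in FPKM (vertical axes) of single events in each of the 6 tumours, with the retained and spliced forms of the intron at left and the 2 leading start sites of the most abundant locus at right. The retained form has a bar in the ZLD1039 tumours and none in the Vehicle tumours. The downstream start site is above the upstream one in the ZLD1039 tumours and slightly above it in Vehicle tumour 2 (250 against 246 FPKM).

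The most abundant locus used 2 main start sites in different proportions. Its upstream start, chr20:57466357-57466920, had 89.5, 56.2 and 94.1 FPKM in the ZLD1039 tumours, against 357, 246 and 537 FPKM in the Vehicle tumours. The groups did not overlap, and the log2 change of -2.20 ± 0.34 (SE) had a limma adjusted p of 0.28. Its downstream start, chr20:57478036-57478640, had 374, 288 and 276 FPKM in the ZLD1039 tumours, against 69.3, 250 and 202 FPKM in the Vehicle tumours. As shares of the locus, the downstream start held 80.0%, 82.7% and 73.0% in the ZLD1039 tumours, against 16.1%, 48.8% and 27.2% in the Vehicle tumours. The difference of 47.9 ± 11.7 percentage points (SE) had a limma adjusted p of 0.76.

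Other events with the smallest p-values also missed the threshold. In 1 locus, the alternative exon end chr20:43561698-43561826 had 3.43, 4.06 and 3.88 FPKM in the ZLD1039 tumours, while the Vehicle tumours left it unlisted, with a limma adjusted p of 0.17. The minus-strand start chr20:5107146-5107272 had 34.3, 41.9 and 13.5 FPKM in the ZLD1039 tumours, against 1.42, 6.64 and 3.75 FPKM in the Vehicle tumours, with an adjusted p of 0.57. The form that includes the exon chr20:30154013-30154098 had 43.6, 42.4 and 44.2 FPKM in the ZLD1039 tumours, against 26.4, 30.0 and 26.9 FPKM in the Vehicle tumours. Its adjusted p was 0.66. Over all 2389 events, 121 (5.06%) had an unadjusted p under 0.05, against 4.70% of all events, and the groups did not overlap for 219 (9.17%), against 10.3%.

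Shares within a locus are scaled to its level, which chose the chromosome, but whether they are independent of that level was not tested. Of 439 exons and introns, 480 start sites and 87 end sites tested with limma, 0 passed an adjusted p of 0.05, and 0% passed genome-wide. An unadjusted p under 0.05 was reached by 11 exons and introns (2.51%), 15 start sites (3.13%) and 2 end sites (2.30%), against 2.09%, 2.49% and 2.86% of all such items. Typical 95% intervals were 16.2, 14.2 and 16.8 percentage points to either side for exons and introns, start sites and end sites.

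Which start site led a locus was as stable as elsewhere. The same start led in all 6 tumours in 107 of 167 loci with several starts (64.1%), against 63.6% of other loci. A change of leader between the groups was found in 1 locus, chr20:10199478-10288066, singled out after its values were seen, against 30 of 7053 loci elsewhere. There the start at chr20:10199478-10199625 held 93.8%, 62.7% and 88.8% of the locus in the ZLD1039 tumours, against 42.6%, 46.3% and 36.7% in the Vehicle tumours. This locus was low, and the start had 0.393 to 2.14 FPKM in the ZLD1039 tumours, against 0.446 to 1.33 FPKM in the Vehicle tumours.

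Averaged over the chromosome, the difference between the groups was smallest for skippable exons and largest for runs of introns. Mean inclusion of 355 skippable exons was 54.9 ± 0.82% in ZLD1039 tumours and 55.4 ± 1.27% in Vehicle tumours (SD, n = 3 each). For 117 introns, mean retention was 19.3 ± 2.38% in ZLD1039 tumours and 21.4 ± 0.62% in Vehicle tumours (SD, n = 3 each), and ZLD1039 tumour 2 was lowest at 16.7%. That difference of -2.04 percentage points was -0.74 without ZLD1039 tumour 2. For 22 runs of introns mean retention was 15.2 ± 1.98% in ZLD1039 tumours and 9.58 ± 4.09% in Vehicle tumours (SD, n = 3 each). The groups did not overlap, with 15.9%, 16.7% and 12.9% in the ZLD1039 tumours, against 11.2%, 4.93% and 12.6% in the Vehicle tumours. With the locus of the retained intron left out, that difference of 5.58 percentage points was 1.65, and without Vehicle tumour 2 it was 3.26. The 82 runs of exons had a mean inclusion of 59.8 ± 1.77% in ZLD1039 tumours and 58.4 ± 0.53% in Vehicle tumours (SD, n = 3 each), a difference of 1.36 percentage points that was 0.67 without ZLD1039 tumour 1 and 2.36 without ZLD1039 tumour 3. On the other chromosomes runs of exons were included at 75.3% in ZLD1039 tumours and 75.4% in Vehicle tumours, and skippable exons at 57.6% and 57.4%. Introns were retained there at 19.4% in ZLD1039 tumours and 19.9% in Vehicle tumours, and runs of introns at 12.6% and 13.0%. Since the members were chosen with results known, no p is given for these means.

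**Figure D5:**
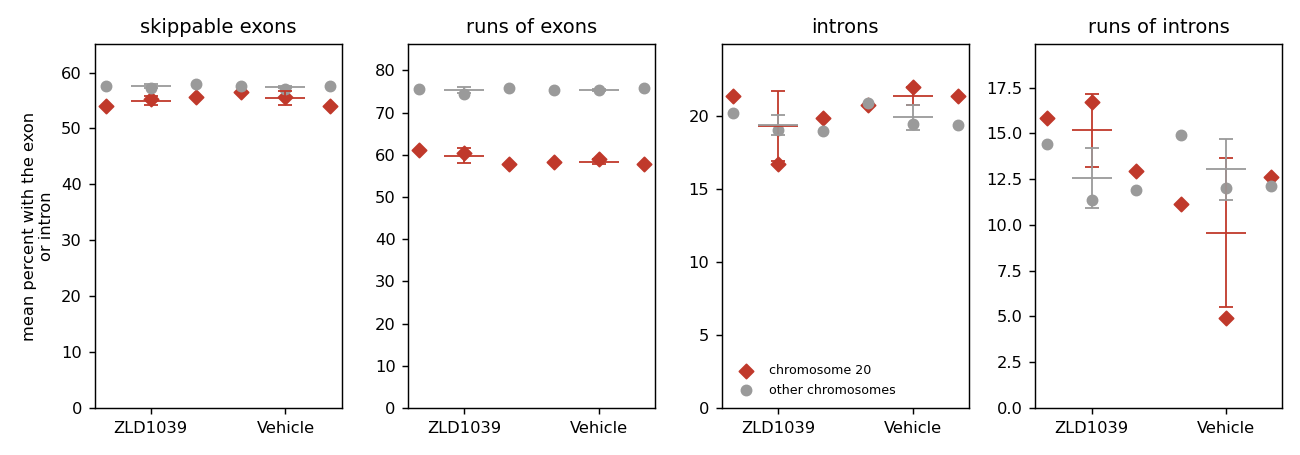
Mean percent of FPKM that contains the exon or intron (vertical axes) in each tumour, for chromosome 20 (diamonds) and other chromosomes (circles), with ZLD1039 at left of Vehicle in each panel and bars for the mean and SD of 3 tumours. Runs of exons lie near 59% on chromosome 20 and near 75% elsewhere in both groups. Runs of introns average 15.2% in ZLD1039 and 9.58% in Vehicle tumours on chromosome 20, against 12.6% and 13.0% elsewhere.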

How the data were processed

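The authors deposited, per the file headers, 1 list of transcript events per tumour with an FPKM value for each event; replicates were not pooled. Bead-purified mRNA went into a SMARTer library kit, per the labels' protocols. Tools named in the submitters' processing notes are HTSeq 0.6.1 and bcl2fastq 2.17.1.14, with mm10 as build; which aligner and event caller were run is not given in the sources used here. Event codes were read as start and end sites, exon skipping, intron retention and alternative exon ends.

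Events were summed to loci as described, with unlisted events at 0. FPKM values are not counts, so limma 3.58.1 (R 4.3.3) with a mean-variance trend was fitted to log2(FPKM + 1) over all features averaging at least 1 FPKM in at least 1 group, and to shares in percent, with Benjamini-Hochberg adjustment over each whole table. The pseudocount understates changes of low loci. Shares needed a mean between 1% and 99% and a total above 0 in all 6 tumours. The scripts were tested on simulated data. Arms were split at the largest gap between listed loci, and abundance classes (low, middle, high) at equal numbers of loci by mean level. The loci described are the 2 most abundant of each window, the 5 largest changes each way without overlap, the 3 extreme deviations each way in ZLD1039 tumour 2, loci unlisted in some tumours, and events past the threshold or nearest to it; the text gives a selection of these. Fixed lists of gene symbols and cell markers could not be matched to identifiers. No human genome or sequence was used here. The members and lists were chosen with earlier results of these data known.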

Additional observations from a re-analysis of the deposited data

How the results depend on the processing

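Alternatives were a pseudocount of 0.1, no filter on low values, summed start events or largest events only, median-of-ratios and quantile scaling, a mean total of at least 5 FPKM for shares, the replicate number as a block, and each tumour left out in turn. Leaving tumours out of the deviations, and leaving out the locus of the retained intron, were added after seeing the data. Under every alternative run, 0 chromosome 20 loci and 0 shares passed the limma test. The 10 loci chosen for their change kept their direction wherever they were fitted. They were picked because their groups did not overlap, so another pseudocount, no filter, the replicate block or a left-out tumour could not reverse them. Only other locus values or another scaling could have done so. Of the 10 loci, 1 had no value with summed start events only and 1 had none with largest events only or quantile scaling. The median deviation of ZLD1039 tumour 2 lay between -0.25 and -0.17, and that of Vehicle tumour 3 between 0.13 and 0.20. Under quantile scaling Vehicle tumours 1 and 2 were above 0 (0.0027 and 0.0073), and under median-of-ratios scaling Vehicle tumour 2 was (0.023). The 2 called events remained 2 with the other pseudocount and with no filter (adjusted p of 0.036 and 0.033). With each tumour left out in turn, 0 to 0 events passed. Replicate numbers did not pair the tumours (correlations of deviations -0.032, 0.020 and -0.061 for tumours 1 to 3), and with the replicate block 0 events passed, the intron having a limma adjusted p of 0.40; the cause was not tested. The difference in exon inclusion, -0.49 percentage points, ranged from -1.17 to 0.092 when 1 tumour was left out and changed sign without Vehicle tumour 1; for exon runs it ranged from 0.67 to 2.36, for introns from -3.07 to -0.74 and for intron runs from 3.26 to 7.11. Under the 5 FPKM minimum the exon difference was -0.18 and the intron difference -1.11. With 3 tumours a group and unknown depth, small changes could not be detected, and larger ones may have been missed.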
